A study of Mus musculus with 4 samples.

Results

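Read depth along the 19 autosomes was taken as a measure of DNA copy number in 4 mouse lung tumors, 2 of the parental line 344SQP and 2 of the anti-PD1-resistant line 344SQR. The autosomes were cut into fixed bins of 5 Mb, and a bin entered when it held at least 50 CpG sites that had 20 or more reads in every tumor. Of 503 bins, 500 entered, with a median of 1625 sites per bin, and the autosomes held 1058541 such sites in all. The bins that failed were short ends of chromosomes 3, 12 and 13 with 0, 0 and 13 sites, and the bin with the fewest sites that entered, at the start of chromosome 14, had 58. The level of a bin in a tumor was the median coverage of its sites divided by the median over all autosomal sites of that tumor. Levels are given on the log2 scale, where 0 is the typical autosomal depth of the tumor.

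344SQ is a mouse lung adenocarcinoma line from animals whose mutant alleles include one of p53, and 344SQR was derived from 344SQP and is resistant to anti-PD1. The cells were injected under the skin of the leg of syngeneic female 129 Sv/Ev mice aged 12 to 16 weeks. Mice of both groups received anti-PD1 (10 mg/kg, 4 doses, the first on day 4), and tumors were taken 24 h after dosing ended. DNA of each tumor was read by reduced representation bisulfite sequencing (RRBS), with a median coverage at the sites used of 99 and 113 reads in parental tumors 1 and 2 and 131 and 134 reads in resistant tumors 1 and 2.

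RRBS cuts DNA with MspI at the sequence ccgg and reads the ends of short fragments, so each fragment is read in proportion to how many copies of it the sample holds and how well it passes size selection, amplification and mapping. Such sequence effects can differ between libraries, so a ratio between tumors need not remove them, and a level within 1 tumor keeps them. Tumor lines often gain or lose whole chromosomes or long segments, which moves the depth of neighbouring bins together. The tumors were sequenced in bulk and contain host cells, so fewer cells with a change and fewer extra copies per cell cannot be told apart.

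Chromosomes 3 and 19 were well above the autosomal median in all 4 tumors. The level of chromosome 19, as the median of its 13 bins, was 0.13 and 0.39 in the parental and 0.26 and 0.45 in the resistant tumors, and every one of its bins was above 0 in each tumor. Chromosome 3 had 0.17 and 0.35 in the parental and 0.24 and 0.24 in the resistant tumors over 32 bins. The lines overlapped on both chromosomes, and parental tumor 1 was the lowest of the 4 on each. In that tumor chromosome 15, at 0.15, was above chromosome 19. After correction for fragment length and G+C content the levels of chromosome 19 were 0.12, 0.34, 0.24 and 0.41 in the same order, and those of chromosome 3 were 0.18, 0.36, 0.25 and 0.29. Of 11 bins at least 0.2 above 0 in all 4 tumors, 9 lay on chromosome 3 and 2 on chromosome 19. After the correction 13 bins were past 0.2 in all tumors, 4 of them among the 11. Without the correction, 38 bins were past 0.2 when parental tumor 1 was left out. At CpG sites on MspI fragments over 500 bases, a readout described below, chromosome 3 was near 0, with 0.01 and 0.07 in the parental and −0.03 and 0.10 in the resistant tumors. Chromosome 19 had 0.26, 0.34, 0.22 and 0.49 in the same readout, and chromosome 11, which was near 0 in the main measure, had 0.39, 0.35, 0.47 and 0.38. The second readout takes reads per CpG of the bin, centred on the median over bins. Levels within a tumor thus stand on different scales in the readouts, and the second is no check on them.

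A set of 17 bins was at least 0.2 below 0 in all 4 tumors, and after the sequence correction 1 bin was, at the end of chromosome 1 from 195000001 to 195471971 with 75 sites. That bin was not among the 17, so 0 of the low bins stayed past 0.2 in every tumor once fragment length and G+C content were taken into account. Among the 17 bins was the one on chromosome 4 from 85000001 to 90000000, with levels of −0.22 and −0.46 in the parental and −0.33 and −0.39 in the resistant tumors over 937 sites. Its corrected levels were −0.17, −0.32, −0.24 and −0.29 in the same order, and the lines overlapped on both scales. It holds Cdkn2a and Cdkn2b, which encode inhibitors of cyclin-dependent kinases and are often lost in tumors.

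Among windows of 100 kb from 88000001 to 89700000 with at least 10 sites of 20 or more reads, the depth of resistant tumor 2 was lowest over the pair of inhibitor genes. The windows were chosen after the bin values were seen, and are given here as levels on the linear scale, where 1 is the autosomal median. The window from 89200001 to 89300000, which holds Cdkn2a (ENSMUSG00000044303, minus strand, 89274471 to 89294653), had 0.838 and 0.646 in the parental and 0.676 and 0.284 in the resistant tumors over 76 sites. The window from 89300001 to 89400000, which holds Cdkn2b (ENSMUSG00000073802, minus strand, 89306299 to 89311039), had 0.828 and 0.611 in the parental and 0.500 and 0.224 in the resistant tumors over 56 sites. Resistant tumor 2 was the lowest of the 4 in both windows, while the lines overlapped in the first and not in the second. On either side the depth of this tumor was higher, with 0.836 over 33 sites from 89100001 to 89200000, where Mtap lies, and 0.866 over 52 sites from 89600001 to 89700000, where Dmrta1 lies. The minimum of 20 reads takes out the lowest sites, and with every site of 1 read or more the Cdkn2a window had 0.636, 0.398, 0.420 and 0.142 over 174 sites. The Cdkn2b window then had 0.828, 0.611, 0.489 and 0.224 over 60 sites. With every site the window from 88800001 to 88900000 was lower still, with 0.0707, 0.0177, 0.0840 and 0.0224 over 15 sites, and it was low in all 4 tumors. These are neighbouring fragments of the same libraries and no test was made on them.

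The fragment with the most sites between the ends of both inhibitor genes and away from annotated untranslated regions shows this on a short stretch. It lies outside any annotated gene, just upstream of Cdkn2a, at chr4:89295064-89295126 of mm10, and has 63 bases with 18 sites on both strands. It is printed on the plus strand with its CpGs in capitals.
Cdkn2a upstream fragment: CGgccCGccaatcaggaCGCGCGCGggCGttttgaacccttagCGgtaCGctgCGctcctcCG
The parental tumors had a median coverage of 100 and 92.5 reads on it and the resistant tumors 112 and 28.5 reads, or 1.01, 0.819, 0.855 and 0.213 times the autosomal median. Resistant tumor 2 was far below the other tumors here, while mean methylation was low in all, from 0.339% in resistant tumor 2 to 1.12% in parental tumor 2.

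Between the lines, most bins with a difference of at least 0.2 and no overlap lay on chromosomes 4, 8 and 15, with 13, 8 and 9 of 38. By limma on the log2 levels, 0 of 500 bins (0%) passed an adjusted p of 0.05 for resistant against parental, and 64 had an unadjusted p below 0.05. edgeR's quasi-likelihood test on coverage summed per bin called 0 bins with 72 at an unadjusted p below 0.05, and DESeq2 called 41, of which 22 were higher and 19 lower in the resistant tumors. The smallest adjusted p by limma was 0.0885. With mean coverage limma called 16 bins, with site-wise ratios 23 and with both strands merged 7. The count of called bins therefore depended on the tool and on the measure of depth, and single bins are given below as values.

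A bin was called apart where both tumors of a line were above both of the other and the line means differed by at least 0.2. The resistant tumors were higher in 23 bins (4.6%) and lower in 15 bins (3%). Without the condition on size, the lines did not overlap in 101 bins with the resistant tumors above (20.2%) and in 112 with them below (22.4%). Of the 38 bins apart, 27 fell into 5 runs of at least 3 neighbouring bins, 3 of them on chromosome 4 and 1 each on chromosomes 8 and 15. Parental tumor 2 and resistant tumor 1 set part of that count, since 61 bins were apart without the former and 70 without the latter. A lone tumor of a line makes an overlap less likely. The resistant tumors were higher in 48 and lower in 13 bins without parental tumor 2, and higher in 46 and lower in 24 without resistant tumor 1. Without parental tumor 1, 13 were higher and 25 lower, and without resistant tumor 2, 17 and 14.

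The proximal part of chromosome 4 was higher in the resistant tumors. In the first run, from 1 to 25000000 with 5 bins and 5310 sites, the median level was −0.07 and −0.04 in the parental and 0.09 and 0.28 in the resistant tumors. In the second, from 40000001 to 60000000 with 4 bins and 10855 sites, it was −0.02 and −0.03 in the parental and 0.20 and 0.32 in the resistant tumors. The parental tumors were near the autosomal median in both runs, and resistant tumor 2 was higher than resistant tumor 1. The difference of line means was 0.24 in the first run and 0.29 in the second, a depth 1.18 and 1.22 times that of the parental tumors. The bin from 55000001 to 60000000, in the second run, had −0.03 and −0.03 in the parental and 0.21 and 0.38 in the resistant tumors (difference 0.32, SE 0.07, adjusted p = 0.0921 by limma). On fragments over 500 bases the difference of that bin was 0.15. The runs hold 83 and 217 protein-coding genes.

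The third run, on chromosome 4 from 90000001 to 105000000, differed in that the parental tumors were the ones away from 0. Over its 3 bins and 3580 sites the median level was −0.25 and −0.30 in the parental and 0.03 and 0.09 in the resistant tumors. This was the run with the largest difference of line means, 0.33, or 1.26 times, and the tumors of a line were no more than 0.06 apart. Its bin from 90000001 to 95000000 had −0.35 and −0.30 in the parental and 0.03 and 0.06 in the resistant tumors (difference 0.38, SE 0.05, unadjusted p = 0.000223 and adjusted p = 0.0885 by limma). On fragments over 500 bases, where levels have another scale, that bin had −1.39 and −1.08 in the parental tumors. The resistant tumors had −1.11 and −1.21. There the difference was 0.07, with the lines overlapping. The bin from 100000001 to 105000000 had −0.22 and −0.30 in the parental and 0.05 and 0.19 in the resistant tumors (difference 0.38, SE 0.07, adjusted p = 0.0885 by limma). That difference was 0.24 without a coverage filter and 0.21 on fragments over 500 bases. The bin holds Jak1 (ENSMUSG00000028530, minus strand, 101152367 to 101265282), a kinase that carries interferon signals.

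In that bin, the MspI fragment of 40 to 200 bases with the most sites lies at chr4:101356454-101356508 of mm10. It overlaps the genes 0610043K17Rik and E130102H24Rik. It is shown, on the plus strand with CpGs in capitals, to give the sequence behind values of the bin, with 24 sites in 55 bases.
Chromosome 4 fragment: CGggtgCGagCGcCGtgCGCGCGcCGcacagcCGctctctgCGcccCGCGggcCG
The parental tumors had a median coverage of 103 and 67.5 reads and the resistant tumors 188 and 200.5 reads, or 1.04, 0.597, 1.44 and 1.50 times the autosomal median. The resistant tumors were both above the parental ones, and the parental tumors were far apart. The bin was chosen for its difference, so the fragment is no separate support for it.

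Chromosome 15 was the reverse, with the proximal part lower in the resistant tumors. The run from 1 to 45000000 took in 9 bins and 9813 sites, and its median level was 0.15 and 0.16 in the parental and −0.06 and −0.12 in the resistant tumors. The line means differed by −0.24, so that the resistant tumors had 0.844 times the parental depth. Farther along, the lines lay closer together: of the 12 bins past the run, 6 had the resistant tumors below and 6 overlapped, with differences from −0.18 to 0.01. The bin of Myc, from 60000001 to 65000000, had 0.03, −0.01, −0.10 and 0.00, and the lines overlapped in it.

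The lowest bin of all by the difference between lines was in this run, from 20000001 to 25000000, with 0.07 and 0.13 in the parental and −0.25 and −0.41 in the resistant tumors (difference −0.43, SE 0.07, unadjusted p = 0.000652 and adjusted p = 0.0885 by limma). It rests on 176 sites on 70 fragments and holds 3 protein-coding genes. The difference was −0.25 with a minimum of 50 reads, −0.29 with mean coverage and −0.25 on fragments over 500 bases. With mean coverage the bins from 15000001 to 20000000 (−0.30), from 1 to 5000000 (−0.29) and at the start of chromosome 12 (−0.30) were lower, so its rank depended on the measure. The first bin of the chromosome, from 1 to 5000000 with 258 sites, had 0.07 and 0.04 in the parental and −0.14 and −0.34 in the resistant tumors, and the bin from 15000001 to 20000000, with 97 sites, had −0.19 and −0.30 against −0.51 and −0.56. These bins of chromosome 15 were poor in sites, and the resistant tumors were the lower pair in each. Without a coverage filter the difference in the bin from 15000001 was −0.19, short of the 0.2 needed for a bin apart. In the bin from 20000001, the fragment with the most sites, at chr15:23958656-23958716 of mm10 outside any annotated gene, did not share the difference.
Chromosome 15 fragment: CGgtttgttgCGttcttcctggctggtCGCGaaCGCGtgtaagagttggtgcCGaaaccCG
At its 7 sites, all on the minus strand, the median coverage was 1.67 and 1.56 times the autosomal median in the parental and 1.63 and 1.53 times in the resistant tumors. The value of a bin is a median over fragments that vary, and 1 fragment does not stand for it.

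The proximal part of chromosome 8 was higher in the resistant tumors, but parental tumor 2 was also high. In the run from 5000001 to 35000000, with 6 bins and 11579 sites, the median level was −0.09 and 0.12 in the parental and 0.27 and 0.30 in the resistant tumors. The line means differed by 0.26, and the parental tumors were 0.21 apart, so that the difference was near the gap within the parental line. Its bin from 5000001 to 10000000 had −0.20 and 0.15 in the parental and 0.25 and 0.43 in the resistant tumors (difference 0.37, SE 0.12, adjusted p = 0.263 by limma), and that from 15000001 to 20000000 had −0.22 and 0.04 against 0.18 and 0.23. Parental tumor 1 was the lowest of the 4 in both. Without it the differences were 0.19 and 0.16, and without parental tumor 2 they were 0.54 and 0.42. The first was 0.21 at a minimum of 50 reads and 0.09 on fragments over 500 bases, and the second was 0.13 without a coverage filter and 0.13 on fragments over 500 bases. Over the whole chromosome the level was −0.06 and 0.15 in the parental and 0.24 and 0.23 in the resistant tumors. This was the largest difference of the 19 autosomes (0.19; two-sided exact permutation p = 0.333, adjusted p = 0.792). It was 0.08 without parental tumor 1 and 0.30 without parental tumor 2. The run holds Fgfr1 (ENSMUSG00000031565, plus strand, 25513654 to 25575718), a growth factor receptor kinase, whose bin had −0.06 and 0.20 in the parental and 0.28 and 0.32 in the resistant tumors.

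The other chromosomes among the 5 with the largest difference were 4, 6, 15 and 19. Chromosome 4 had −0.07 and −0.09 in the parental and 0.01 and 0.07 in the resistant tumors (difference 0.12). Chromosome 6 had 0.04 and 0.04 in the parental and −0.07 and −0.07 in the resistant tumors (difference −0.11), and chromosome 15 had 0.15 and 0.17 against 0.05 and 0.06 (difference −0.10). On these 3 chromosomes the tumors of a line lay close together and the lines did not overlap. Over all 19 autosomes the lines did not overlap on 8. Each of the 3 chromosomes gave an exact permutation p of 0.333, the smallest that 2 tumors against 2 allow. The adjusted p was 0.792 over 19 autosomes. Chromosome 19 differed by 0.10 with the lines overlapping (exact permutation p = 0.667), and the sign turned to −0.03 without parental tumor 1. By the rule of no overlap and at least 0.1, 4 chromosomes were apart, and 2 were when sites of any coverage were used.

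On chromosome 6 the resistant tumors were below the parental ones in 29 of 30 bins, of which 3 differed by at least 0.2. On chromosome 4 they were above in 22 of 32 bins and below in 0, and on chromosome 15 they were below in 15 of 21 and above in 0. The counts of chromosomes 4 and 15 include the bins of their runs. Over all 500 bins the resistant tumors were above in 20.2% and below in 22.4%. The bin of chromosome 6 from 75000001 to 80000000 had −0.04 and 0.01 in the parental and −0.35 and −0.31 in the resistant tumors (difference −0.31, SE 0.05, adjusted p = 0.0885 by limma). Its difference was −0.08 with both strands merged, −0.14 with mean coverage, −0.15 with site-wise ratios, −0.20 after the sequence correction and −0.14 on fragments over 500 bases, so its size depended on the measure.

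Of the bins apart outside runs, a pair at chromosome ends stood out by their edges. The first bin of chromosome 12, from 1 to 5000000 with 1677 sites, had 0.28 and 0.39 in the parental and 0.06 and −0.01 in the resistant tumors (difference −0.31, SE 0.06, adjusted p = 0.0885 by limma). The last bin of chromosome 11, from 120000001 to 122082543 with 4054 sites, had 0.29 and 0.42 in the parental and 0.15 and 0.10 in the resistant tumors. Both were high in the parental tumors and nearer 0 in the resistant ones. In windows of 1 Mb, the level on chromosome 12 in the parental tumors went from 0.23 and 0.36 between 4000001 and 5000000 to −0.12 and −0.04 in the next window. On chromosome 11 it went from −0.11 and −0.12 between 119000001 and 120000000 to 0.34 and 0.46 in the next. The resistant tumors rose at the same place on chromosome 11, from −0.18 and −0.21 to 0.19 and 0.11, so the edge was present in both lines. On chromosome 12 they went from 0.10 and 0.05 to 0.03 and 0.03.

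Tumors of the same line also differed from each other. Over the 500 bins, the SD of the log2 ratio was 0.10 between the parental tumors and 0.10 between the resistant tumors. It was 0.11 for resistant tumor 1 against parental tumor 1, 0.11 for resistant 1 against parental 2, 0.13 for resistant 2 against parental 2 and 0.15 for resistant 2 against parental 1. The difference of line means had an SD of 0.10 over bins, from −0.43 to 0.38, with a median of 0.00. The pairs of resistant tumor 1 with either parental tumor thus spread about as much as tumors of 1 line, and the pairs of resistant tumor 2 with them spread the most.

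The parental tumors were at least 0.2 apart in 47 bins, of which 43 were higher in tumor 2. With mean coverage the count was 28, with 23 higher in tumor 2, and with site-wise ratios it was 29. The 47 bins included runs on chromosome 3 from 10000001 to 25000000 and from 30000001 to 50000000. Others were on chromosome 8 from 5000001 to 20000000 and from 40000001 to 65000000, and on chromosome 19 from 1 to 45000000. On the last, over 9 bins and 27051 sites, the median level was 0.16 and 0.40 in the parental and 0.30 and 0.47 in the resistant tumors. The run holds Cd274, Pdcd1lg2 and Jak2, of which Cd274 encodes the ligand PD-L1. The bin of Cd274 had 0.08 and 0.39 in the parental and 0.18 and 0.41 in the resistant tumors. In 1 run, on chromosome 14 from 65000001 to 80000000, parental tumor 2 was lower, with 0.00 and −0.22 in the parental and 0.01 and −0.11 in the resistant tumors.

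The bins with the largest gaps between the parental tumors were the end of chromosome 1 from 195000001 (−0.68 and −0.08, on 75 sites), chromosome 8 from 50000001 to 55000000 (0.01 and 0.42) and the end of chromosome 7 from 145000001 (−0.49 and −0.10, on 120 sites). The bins at chromosome ends were short and held few sites.

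The resistant tumors were at least 0.2 apart in 24 bins, 16 higher and 8 lower in tumor 2. That split depended on the measure, with 3 higher and 11 lower with mean coverage and 12 higher and 15 lower with 1 value per fragment end. Chromosome 17 was lower in resistant tumor 2 alone, with −0.06 and −0.04 in the parental and 0.00 and −0.23 in the resistant tumors, and in 0 of its 19 bins was resistant tumor 2 above resistant tumor 1. Chromosome 1 was higher in the same tumor, with −0.09 and −0.07 in the parental and −0.04 and 0.06 in the resistant tumors, and 37 of 40 bins were higher in resistant tumor 2 than in resistant tumor 1. The largest gaps within the line were on chromosome 17 from 40000001 to 45000000 (0.00 and −0.34) and on chromosome 14 from 40000001 to 45000000 (0.12 and −0.16). The next largest was at the end of chromosome 17 from 90000001 (−0.62 and −0.90). That bin was also apart, lower in the resistant tumors, with −0.52 and −0.43 in the parental tumors. Its difference between the lines was −0.29, and −0.10 after the sequence correction.

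The lists of genes followed the bins around them. Of 37 oncogenes and tumor suppressors, 1 (Fgfr1) lay in a bin apart with the resistant tumors higher and 0 in one with them lower. Of 21 immune genes, 1 (Jak1) lay in a higher and 0 in a lower bin, and in the BMP list (ligands, receptors, Smads, antagonists and effectors), 0 of 24 lay in either. Over all 20798 protein-coding genes in the bins, 737 (3.54%) lay in higher and 372 (1.79%) in lower bins. The median difference was 0.00 for the first list, −0.02 for the immune genes and 0.01 for the BMP list, beside −0.01 over all protein-coding genes. Genes in a bin share its value.

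Bmp7, a secreted ligand of the BMP family, was in a bin with like depth in the 4 tumors. The bin, on chromosome 2 from 170000001 to 175000000, had −0.17 and −0.21 in the parental and −0.20 and −0.21 in the resistant tumors, a difference of −0.02. Antigen presentation genes on chromosome 17 (Tap1, Tap2, Tapbp and H2-K1) shared a bin with 0.01 and 0.01 in the parental and 0.00 and −0.22 in the resistant tumors. There the low depth was again in resistant tumor 2.

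Reads away from the fragments that defined the bins gave a second look at the same libraries. They came from CpG sites on MspI fragments over 500 bases that had under 20 reads in every tumor, and summed to 1267309 and 2062034 in the parental and 2563396 and 9253747 in the resistant tumors. Resistant tumor 2 thus had the most of them. This readout was chosen after the bin values were seen. Its level in a bin was the log2 of these reads per CpG of the bin, centred on the median over bins. That is another scale than that of the main level. The difference between lines was above 0 in 22 of the 23 bins that were apart and higher, with a median of 0.16, and below 0 in 15 of the 15 that were lower, with a median of −0.19. Over all bins it was above 0 in 283 and below 0 in 217. In the runs it was smaller than in the main measure, with 0.15 and 0.17 in the first and second runs of chromosome 4, 0.16 in the third, 0.15 on chromosome 8 and −0.15 on chromosome 15. The runs were picked for their difference in the main measure. The limit of under 20 reads also caps the second readout, so the sizes cannot be compared. The lines did not overlap in the 3 runs of chromosome 4, but they overlapped on chromosome 8 (−0.08 and 0.08 in the parental, 0.06 and 0.25 in the resistant tumors) and on chromosome 15 (−0.08 and −0.28 against −0.25 and −0.40). At both chromosome ends it was near 0, with −0.04 on chromosome 12 and −0.03 on chromosome 11, so those bins did not differ in this readout. Across bins the differences of the main and the second measure had a Pearson r of 0.49, over 500 bins that share libraries.

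Bins that were apart were near the others in G+C content and had fewer sites, most of all the lower bins. The median G+C content was 41.2% in the higher, 41.0% in the lower and 41.8% in the other bins, and there were 303, 249 and 350 sites per Mb. Averaged over bins, methylation in the parental tumors was 29.5% and 31.9% in the higher, 41.7% and 43.3% in the lower and 33.1% and 35.2% in the other bins. Mean methylation of the sites differed between the lines by −2.73, −3.41 and −2.59 percentage points in these groups as medians of resistant minus parental, so it was lower in the resistant tumors in all 3. The difference ran from −12.4 to −1.91 points among the lower bins, from −5.68 to 1.48 among the higher bins and from −17.2 to 0.734 among the other bins. It was −8.71, −12.4 and −12.1 in the bin of chromosome 6 from 75000001 and the bins of chromosome 15 from 15000001 and from 20000001. Across bins the difference in depth had a Pearson r of −0.02 with G+C content and 0.18 with the difference in methylation. The level itself had an r with G+C content of 0.25 and 0.02 in the parental and 0.10 and 0.10 in the resistant tumors, so that relation differed between libraries. With only sites under 20% methylation, 474 bins entered, and 40 were apart, 25 higher and 15 lower in the resistant tumors. The bins of chromosome 6 from 75000001 and of chromosome 15 from 15000001 and from 20000001 had no value in that setting. The part of methylation in the depth was not tested.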

How the data were processed

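Reads were trimmed by the authors (Trim Galore 0.4.1, cutadapt 1.9.1), mapped to mm10 (Bismark, Bowtie 1.1.2) and kept where unique. The deposited values are read counts per CpG and strand (coverage), not normalized, and the percent methylated. All 8414014 sites listed lie at a CpG of GRCm38, the same build. Duplicate reads cannot be told from copies in RRBS, so coverage holds amplification.

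Each autosome was divided from its first base into bins of 5 Mb. limma 3.58.1 was fitted to log2 levels (2 tumors against 2, Benjamini-Hochberg over 500 bins), with edgeR 4.0.16 and DESeq2 1.42.0 on coverage summed per bin beside it, in R 4.3.3. A read is summed once per CpG it covers, so those sums are not independent counts. For chromosome values the test was an exact permutation over tumors, two-sided (scipy 1.17.1). limma and edgeR were checked on simulated bins drawn independently and given larger changes than nearly all bins had here. That check does not cover smaller changes. For the correction, log2 coverage was centred within 20 classes of fragment length by 20 of G+C in each tumor. Gene positions are from GENCODE vM21, and a gene belongs to the bin of its midpoint.

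The text names the 5 chromosomes with the largest difference, the 5 highest and 5 lowest bins without overlap, the 3 bins with the largest gap within each line, every run of at least 3 bins, and genes of 3 lists in bins apart, with Bmp7. Myc, Cdkn2a, Cdkn2b, Cd274 and the antigen presentation genes, the bins set beside them, windows of 1 Mb and 100 kb, and the Cdkn2a fragment were chosen after their values were seen, and some other genes are not reported here. Bins, members and lists were chosen with earlier results of these data known. The tumors come from separate mice.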

Additional observations from a re-analysis of the deposited data

Results flagged for a closer look

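Signal appeared on chromosome Y, which the bins leave out, in all tumors of these female mice. Over CpG sites from the start of the chromosome to base 3600000, a region chosen after the reads were seen, the parental tumors had a summed coverage of 2295 and 3469 and the resistant tumors of 1428 and 1561. Over the 178 sites there on fragments of 40 to 200 bases, the median was 6 and 10 reads in the parental and 0 and 0 in the resistant tumors, and 35, 29, 140 and 152 sites had no read. What gave these reads was not tested.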

How the results depend on the processing

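By limma, 7 bins were called with both strands merged, 16 with mean coverage, 23 with site-wise ratios and 6 with sites on fragments over 500 bases, the last chosen after seeing the data. DESeq2 called 41. edgeR and all other alternatives gave 0, with a range of 0 to 0 when each tumor was left out. With the replicate block limma called 0 bins, with 83 at an unadjusted p below 0.05. The labels do not say whether tumors of the same number share a batch. The differences of tumor 2 and tumor 1 in the lines had a Pearson r of 0.25 over 500 bins.

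Bins apart came to 22 on fragments over 500 bases, and 31 to 70 with each tumor left out. Chromosomes apart came to 2 without a coverage filter and 2 on fragments over 500 bases. The SD of the difference between lines was 0.10 to 0.13 with each tumor left out. Bins with the parental tumors apart fell to 28 with mean coverage and 29 with site-wise ratios. Those with the resistant tumors apart came to 14 and 14 in the same settings, 38 without a coverage filter, 39 under 20% methylation and 39 on fragments over 500 bases. Bins high in all tumors came to 17 at 10 reads, 7 at 50 reads, 19 without a filter, 21 scaled to the median over bins, 146 on fragments over 500 bases and 11 to 38 with each tumor left out. Bins low in all tumors came to 10 with 1 value per fragment end, 1 with the sequence correction, 4 at 50 reads, 64 without a filter, 6 under 20% methylation, 10 scaled to the median over bins and 159 on fragments over 500 bases. The counts of high and low bins on fragments over 500 bases use the scale of that readout. Why the counts moved was not tested. The difference on chromosome 19 ran from −0.034 (without parental tumor 1) to 0.23 with each tumor left out. In limma without a tumor, the lone one is taken to vary like the other line.

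Of 320 values of single chromosomes and bins, 252 moved by less than the spread within lines, of which 50 were identical under site minimums, the replicate block or the limit on the highest sites, 67 moved by more, and 1, on chromosome 19 without parental tumor 1, changed sign. Only 2 tumors per line limit every test, and depth at few sites limits the short bins.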

Other observations

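Chromosome X, which was not among the bins, was below the autosomes in every tumor. Its median coverage over 22535 sites with 20 or more reads in all tumors was 0.737 and 0.593 times the autosomal median in the parental and 0.695 and 0.537 times in the resistant tumors. The order of the 4 tumors was the reverse of that of chromosome 19, where parental tumor 1 was lowest and resistant tumor 2 highest. With 4 tumors no correlation was computed, and what share of host cells each tumor held was not tested.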
